A study of Drosophila melanogaster with 9 samples.

Results

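Replication origins of Drosophila S2 cells had been mapped from short nascent strands in a standard experiment on pooled gradient fractions and in a second experiment on 3 single size fractions. The 2 experiments are compared here, region by region. The members were all regions of the S2 pooled list and of the lists for fractions 4, 5 and 6 outside the mitochondrial genome. These came to 24033 of the 32247 regions in the series, namely 7268 pooled origins and 4505, 6447 and 5813 regions of fractions 4, 5 and 6. Regions of the 3 fractions that overlapped were joined into a union of 8040 regions.

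A replication origin opens where a helicase loaded in G1 is activated in S phase, and each new leading strand starts from an RNA primer. Short nascent strands are those young leading strands, still carrying the primer, which protects them from lambda exonuclease while broken DNA is digested. Metazoan cells license far more sites than they use, so the set of sites seen in a cell population is a mixture of frequent and rare starts. The size of the strands on a gradient reflects how far the forks had moved from the start.

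All samples of the pooled and fraction lists came from S2-DRSC, a cell line derived from Drosophila embryos that has features of blood cells. The labels give no drug, transgene or other treatment. Per the labels' protocols, strands of 0.5 to 2.5 kb were taken from the gradient, DNA without a primer was digested in several rounds of kinase and lambda exonuclease treatment, and a transposase-based kit was used for the libraries. The pooled list stands for 2 biological replicates together, and each fraction list for 2 libraries, of short strands in fraction 4, middle-sized strands in fraction 5 and long strands in fraction 6. Pooled origins of the neural line ML-DmBG3-c2 (Bg3), an 8209-region list, served only as an outside readout. Each list is a single merged set with no column per replicate. No difference below could therefore be set against a spread between cultures, no test was made, and "lower" or "higher" describes these lists. Intervals are 95% Wilson intervals for shares and order-statistic intervals for medians. They cover counting error only and treat neighbouring origins as independent.

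By the 1 bp rule more sites were found than missed in both directions, and the share depended on the overlap asked for. In all, 4257 of 7268 pooled origins (58.6%, interval 57.4 to 59.7) overlapped the union by at least 1 bp. In the other direction 4389 of 8040 union regions (54.6%, 53.5 to 55.7) overlapped a pooled origin. Pooled origins covered 6967 kb and union regions 7918 kb, and 4448 kb lay in both, which was 63.8% of the pooled and 56.2% of the union bases. The union covered 6.11% of the sequence up to the last listed region, and the centre base of a pooled origin lay inside it in 54.6% of cases. With overlap of 50% of both regions the shares fell to 46.0% and 41.6%, and with gaps of up to 500 bp allowed they were 63.5% and 61.4%. At the edge of the 1 bp rule itself, 17 pooled origins overlapped the union by 50 bp or less, with a median efficiency of 1425 reads per kb, and 43 missed it by under 50 bp, with a median of 1487.

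The Bg3 list gives a scale for these shares, because it is about as long as the union. It held 3290 of the 7268 pooled S2 origins (45.3%, 44.1 to 46.4) and 3487 of the 8040 union regions (43.4%, 42.3 to 44.5). The S2 experiments thus shared more sites with each other than with the other line, by 13.3 and 11.2 percentage points. The Bg3 list covered 4.95% of the sequence, somewhat less than the union. Regions of Bg3 were found about as often in one S2 experiment as in the other, with 42.5% in the pooled list and 43.5% in the union. The pooled and fraction lists come from different libraries, and each fraction list from strands of a single size class. Library depth and calling settings are unknown here. Which of these the unshared sites follow cannot be told apart.

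Efficiency was higher among the origins that were found than among those that were not. It is the authors' value per origin, in reads per kb, and only the pooled list has it. Median efficiency was 1774 reads per kb (1751 to 1799) for the 4257 found and 1423 (1416 to 1433) for the 3011 not found. The quartiles of the found origins were 1475 and 2330 reads per kb, and those of the others 1290 and 1581. The groups overlapped widely at the low end, and few strong origins were absent from the union. Of the origins not found 2854 (94.8%) lay below 2000 reads per kb, against 63.9% of those found. Among 424 origins with at least 4000 reads per kb, 1 was missing from the union.

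The share found climbed through 5 equal groups by efficiency. It was 33.98% (31.6 to 36.4) in the weakest group, below 1326 reads per kb, and then 40.8%, 52.5% and 72.9%. It reached 92.6% (91.2 to 93.9) in the strongest group, above 2115. Within that group 95 of the 107 origins not found lay in its lower part, the ranks 728 to 1454, where 632 of 727 were found (86.9%). The counts were 353 of 364 in the ranks 364 to 727 and 289 of 290 in the ranks 74 to 363. All 73 origins of the top 1% were found, 97.3% of them in every fraction. The share held by all 3 fractions rose as well, from 10.04% in the weakest group to 69.2% in the strongest.

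Reads followed the shared origins more closely than counts of origins did. The found origins held 39.5 M of the 42.1 M reads inside pooled origins (93.6%). Much of this sat in a few sites: without the 73 origins that held most reads, 19.1 M reads remained and the found origins held 85.9% of them. The origins in no fraction held a median of 695 reads, and those in the union a median of 1405.

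Width went the same way. Found pooled origins had a median width of 756 bp (739 to 774) and the others 487 bp (478 to 496). The share found rose from 32.1% among origins of 164 to 400 bp to 86.9% among those of 1086 bp or more. By the centre-base rule, which leaves out the width of the pooled origin but not that of the union region, the same groups gave 31.0% and 79.1%. Union regions showed a flatter slope, from 38.7% at up to 380 bp to 73.3% at 1151 bp or more. Of 259 pooled origins of at least 4 kb, 258 were found. The exception, named after its value was seen, was a 4520 bp origin on 3L at 16051530 to 16056049 with 1832 reads per kb, 2300 bp from the nearest union region and 8098 bp from the nearest Bg3 origin.

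Neither measure stood in for the other, as the grid of width and efficiency groups shows. Among the narrowest origins the share found rose from 23.5% of 631 in the weakest efficiency group to 87.5% of 56 in the strongest, a span of 64.05 points. Among the widest it rose from 63.6% of 33 to 96.7% of 766, a span of 33.1 points. Width in turn made a difference of 40.2 points among the weakest origins but only 9.24 points among the strongest. Narrow, strong origins were therefore found nearly as often as wide, strong ones, whereas narrow, weak ones were mostly absent. Within each width group the found origins also had the higher median efficiency, from 1431 against 1329 reads per kb in the narrowest to 2371 against 1647 in the widest.

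**Figure D1:**
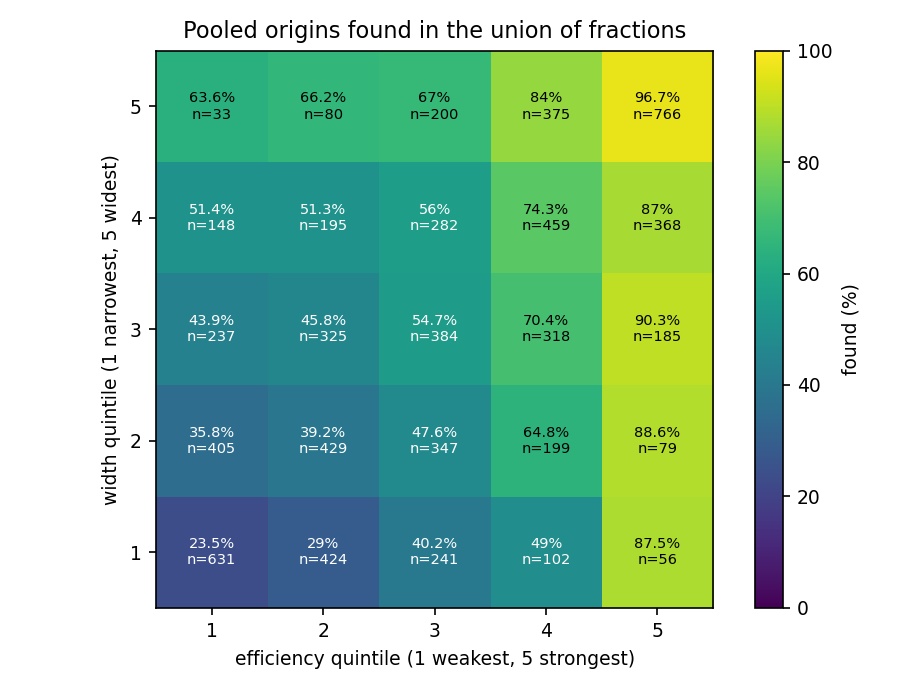
Share of the 7268 pooled S2 origins found in the union of fractions, in percent with the number of origins, for 5 equal groups by efficiency (x axis, 1 weakest) and by width (y axis, 1 narrowest). The share runs from 23.5% at the lower left to 96.7% at the upper right, and every cell of the strongest efficiency group is at 87.0% or more.

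The directions parted on heterochromatin and on chromosome 4, the small autosome that carries much heterochromatin. On the 6 assembled heterochromatic scaffolds 631 of 812 pooled origins (77.7%, 74.7 to 80.4) were found in the union, but only 642 of 1247 union regions (51.5%, 48.7 to 54.2) were found in the pooled list. Chromosome 4 gave 35 of 43 pooled origins (81.4%, 67.4 to 90.3) and 34 of 69 union regions (49.3%, 37.8 to 60.8). On the 4 large autosomal arms the directions were level, at 55.4% (54.1 to 56.7) and 55.2% (54.0 to 56.5). The X gave 61.2% (57.4 to 65.0) and 55.1% (51.4 to 58.7). These sequences hold different numbers of calls in the 2 experiments. For every 100 union regions there were 65.1 pooled origins on the heterochromatic scaffolds, 62.3 on chromosome 4, 87.7 on the X and 96.3 on the large autosomal arms.

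Other properties moved with the heterochromatic share. The union covered 18.4% of the heterochromatic scaffolds, against 5.58% of the autosomal arms, 3.27% of the X and 6.63% of chromosome 4. Pooled origins on the scaffolds were also wider (median 972 against 610 bp) and stronger (1741 against 1549 reads per kb) than on the autosomal arms. All pooled origins of the same width and efficiency groups had 68.4% found, 9.30 points below the 77.7% seen. The remaining 9.30 points were not set against the denser coverage, whose part was not tested. Efficiency group by group, heterochromatic origins were found more often than those of the autosomal arms in the weakest group (55.1% of 136 against 31.1% of 1177) and nearly level in the strongest (94.7% of 227 against 91.6% of 1057). Copies of repeats are common in these scaffolds, and the sources used here do not say how reads with several matches were placed.

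The X stood apart from the scaffolds in this respect. Its union coverage was the lowest of these classes and its pooled origins the narrowest (median 502 bp), yet 384 of 627 were found. Origins of like width and efficiency would give 56.7%, which is 4.58 points less and just below the interval of 57.4 to 65.0. By contrast, only 30.8% of the pooled S2 origins on X were in the Bg3 list. The gap between the 2 outside lists was therefore 30.5 points on X, 13.0 on the autosomal arms and 2.71 on the heterochromatic scaffolds, where Bg3 held 75%.

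On 3L, of 1349 pooled origins 690 (51.1%, 48.5 to 53.8) were in the union, 5.57 points below the 56.7% of like width and efficiency, and the lowest share of any sequence. In the reverse direction 3L gave 56.3% (53.5 to 59.0), the highest of any sequence. It was also the only sequence with more pooled origins than union regions, 108 for every 100. The arms 2L, 2R and 3R gave 56.2%, 59.4% and 55.0% of pooled origins and 54.5%, 55.7% and 54.7% of union regions. Pooled origins of like width and efficiency gave 59.9%, 56.2% and 56.4% for these arms. For 2L (interval 53.7 to 58.7) and 2R (56.7 to 62.0) this value lay outside the interval of the share found, as it did for 3L.

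**Figure D2:**
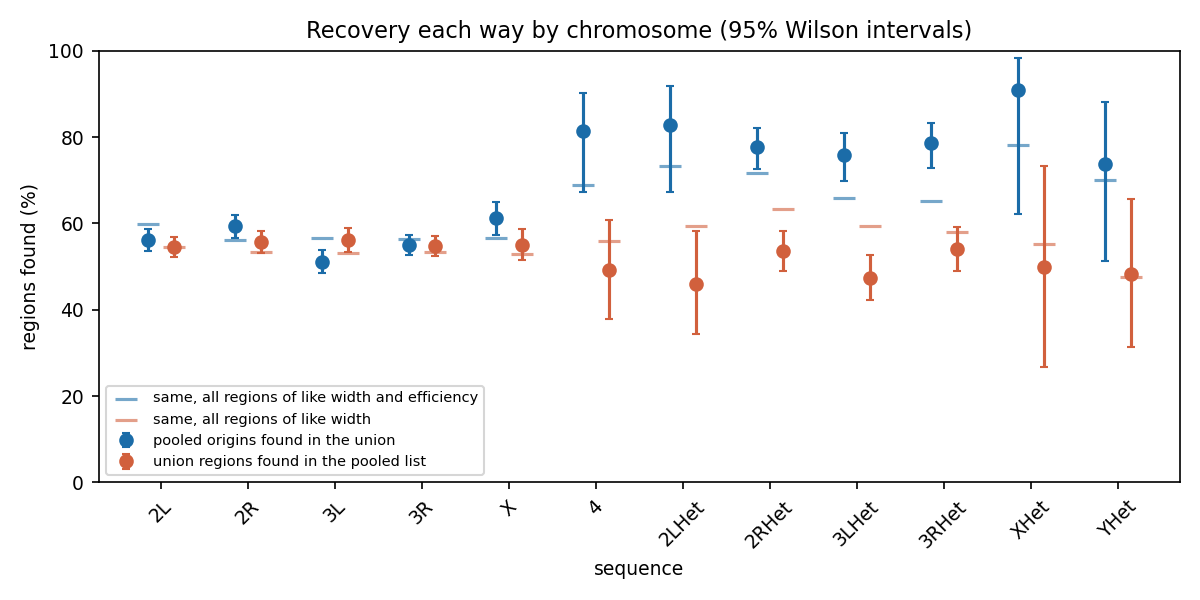
Share of regions found in the other experiment, in percent, for each sequence. Blue points are pooled origins found in the union and orange points union regions found in the pooled list, with 95% Wilson intervals, and the short bars give all regions of like width and efficiency (pooled) or like width (union). The directions lie within 6.14 points of each other on the large arms and X, with the pooled share the lower on 3L, and further apart on chromosome 4 and the heterochromatic scaffolds, with intervals that still overlap on XHet and YHet.

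Spacing made little difference to pooled origins. Found origins lay a median of 4197 bp (4005 to 4446) from the next pooled origin and those not found 4985 bp (4656 to 5260). The share found was 62.1% (59.5 to 64.7) of 1326 origins with a neighbour within 500 bp and 54.1% (50.2 to 57.9) of 640 with none within 20 kb. Isolated origins were narrower (median 529 against 637 bp) and weaker, and origins of like width and efficiency gave 61.5% and 53.2% in these bins. Across all 7 bins the share found stayed within 2.13 points of that value. Spacing thus added little once width and efficiency were taken into account.

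For union regions the pattern had a dip. Regions with the nearest neighbour at 500 bp to 1 kb were found in the pooled list in 46.0% of 600 cases (42.05 to 50.001) and those at 1 to 2 kb in 47.9% of 751 (44.4 to 51.5). Regions of like width gave 55.7% and 56.2%. Isolated regions, with none within 20 kb, were found in 60.6% of 606 cases (56.6 to 64.4), although they were narrow (median 479.5 bp) and regions of like width gave 50.2%. Those closer than 500 bp matched their width value, at 55.8% against 55.99%. An isolated fraction region was thus more often in the pooled list than a clustered one of the same width. No efficiency exists for the union, so strength could not be held equal here.

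**Figure D3:**
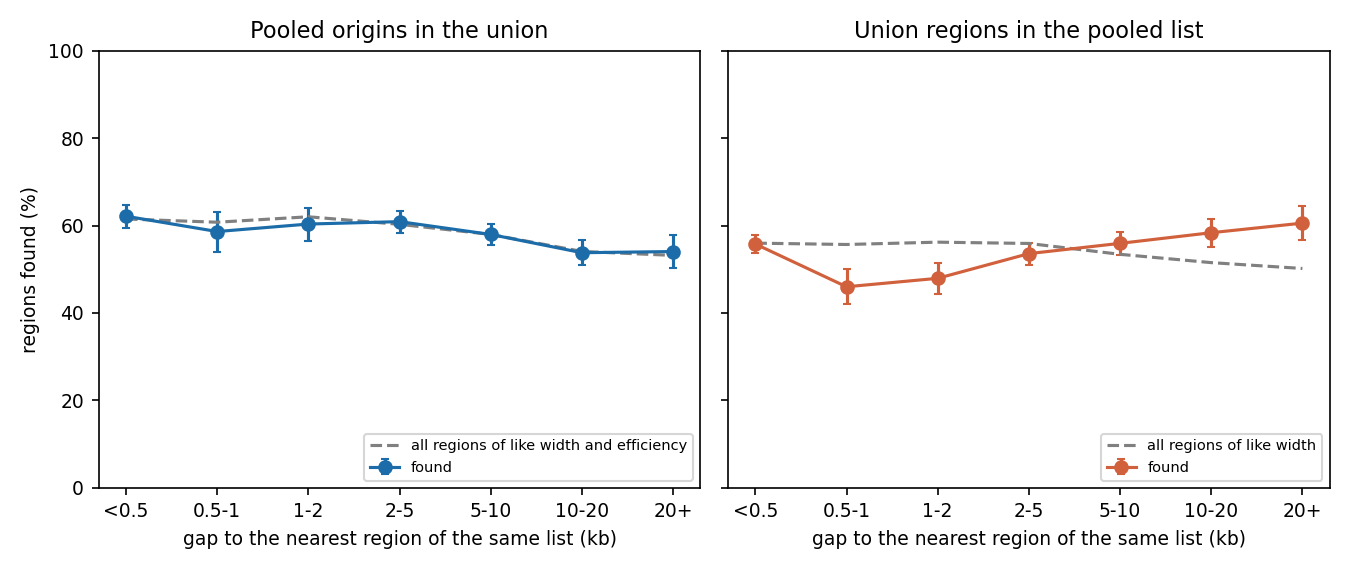
Share of regions found in the other experiment (percent, 95% Wilson intervals) by the gap in kb to the nearest region of the same list, for pooled origins (left) and union regions (right). Dashed lines give all regions of like width and efficiency (left) or like width (right). The left curve follows its dashed line, and the right curve dips to 46.0% at 0.5 to 1 kb and ends at 60.6%, above it.

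Sites absent from the other experiment were seldom near misses. The 3011 pooled origins not found lay a median of 5553 bp from the nearest union region, with quartiles of 1722 and 13048 bp. Of them 359 (11.9%) were within 500 bp and 409 (13.6%) more than 20 kb away. Their efficiency hardly varied with that distance, with medians of 1442 reads per kb in the nearest and 1427 in the farthest class. The share also in Bg3 was 34.8% within 500 bp and 25.2% beyond 20 kb. The 3651 union regions not found lay a median of 4385 bp from a pooled origin, and 549 (15.04%) were within 500 bp.

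The strongest pooled origin in no fraction lay on 3R at 4730831 to 4732201. It was 1371 bp wide with an efficiency of 9118 reads per kb (5.82 times that of the median pooled origin), and was 203 bp from the nearest union region and 211 bp from the next pooled origin. The next 4 were at 3L 1380093 to 1380685 (3723 reads per kb), 3L 1400420 to 1401903 (3619), 3R 27570917 to 27571873 (3411) and the scaffold 3LHet 1086156 to 1086861 (3307). They lay 22, 2603, 2325 and 1294 bp from the union, in that order. The first 3 of these 4 were Bg3 origins too, and the origins at 3R 4730831 and on 3LHet were not. Of the 5, then, 2 sat next to a called fraction region, and 3 had none within 1 kb.

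Conversely, 666 union regions held by all 3 fractions were absent from the pooled list. The 5 widest were on 2RHet at 590631 to 599005 (8375 bp), 3L at 626146 to 633849 (7704 bp), 2RHet at 2277401 to 2284579 (7179 bp), X at 21595114 to 21602261 (7148 bp) and 2L at 20272644 to 20279739 (7096 bp). Respectively, 7173, 24725, 63, 3685 and 4863 bp separated them from the closest pooled origin. All 5 were called in Bg3, which held 41.0% of the 666 regions and 62.9% of the widest of 5 width groups of all union regions.

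Pooled origins took up the 7 combinations of fractions very unevenly. Of the 4257 found, 2170 (51.0%) were in all 3 fractions and 774 (18.2%) in fractions 5 and 6. Fraction 5 alone accounted for 479 (11.3%) and fractions 4 and 5 for 320 (7.52%). Fraction 6 alone gave 238 (5.59%), fraction 4 alone 217 (5.10%) and fractions 4 and 6, without the size class between, only 59 (1.39%). The combination that skips the middle size class was the smallest. With overlap of 50% of both regions it rose to 128, and fraction 4 alone, at 341, then exceeded fraction 6 alone (282) and fractions 4 and 5 (302). Union regions by the 1 bp rule had 176 of 8040 in fractions 4 and 6 (2.19%), again the fewest. Where a pooled origin and a union region matched singly, both had the same combination in 3759 of 3785 pairs. This follows largely from how the classes were built, because both combinations come from the same fraction regions. It is no measure of agreement between the experiments.

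Combination mattered for whether a fraction region reached the pooled list. The share of union regions found was 76.4% (74.8 to 78.0) for all 3 fractions. It was 58.2% (55.6 to 60.8) for 5 and 6, 58.1% (53.97 to 62.2) for 4 and 5, and 36.4% (29.6 to 43.7) for 4 and 6. Among regions of a single fraction, 44.2% (41.4 to 47.1) of the 1169 in fraction 5 were found, but 26.9% (24.0 to 30.0) of the 837 in fraction 4 and 26.3% (23.7 to 29.0) of the 1070 in fraction 6. With equal weight to 5 width groups the shares of fractions 4, 5 and 6 alone were 27.3%, 46.2% and 26.8%, and that of fractions 4 and 6 was 38.99%. At an equal number of fractions, combinations with fraction 5, the longest of the 3 lists, were found more often than those without it.

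The order differed for efficiency and width. Pooled origins in all 3 fractions had a median of 2026 reads per kb (1984 to 2069) and 948 bp. Those with fraction 4 alone reached 1736 reads per kb (1627 to 1849) and 766 bp, and those with 4 and 5 reached 1722 (1672 to 1821) and 805.5 bp. Fractions 5 and 6 together gave 1616 reads per kb (1589 to 1647) and 636 bp, and 4 and 6 gave 1562 (1386 to 1634) and 587 bp. Fraction 5 alone and fraction 6 alone were lowest, at 1501 (1476 to 1523) and 1494 (1449 to 1564) reads per kb and 564 and 551.5 bp. Every combination still lay above the 1423 reads per kb of origins in no fraction, although the interval of 4 and 6 reached below it. In the strongest efficiency group 73 of 1454 origins were in fraction 4 alone and 13 in fraction 6 alone, where the weakest group had 37 and 52.

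**Figure D4:**
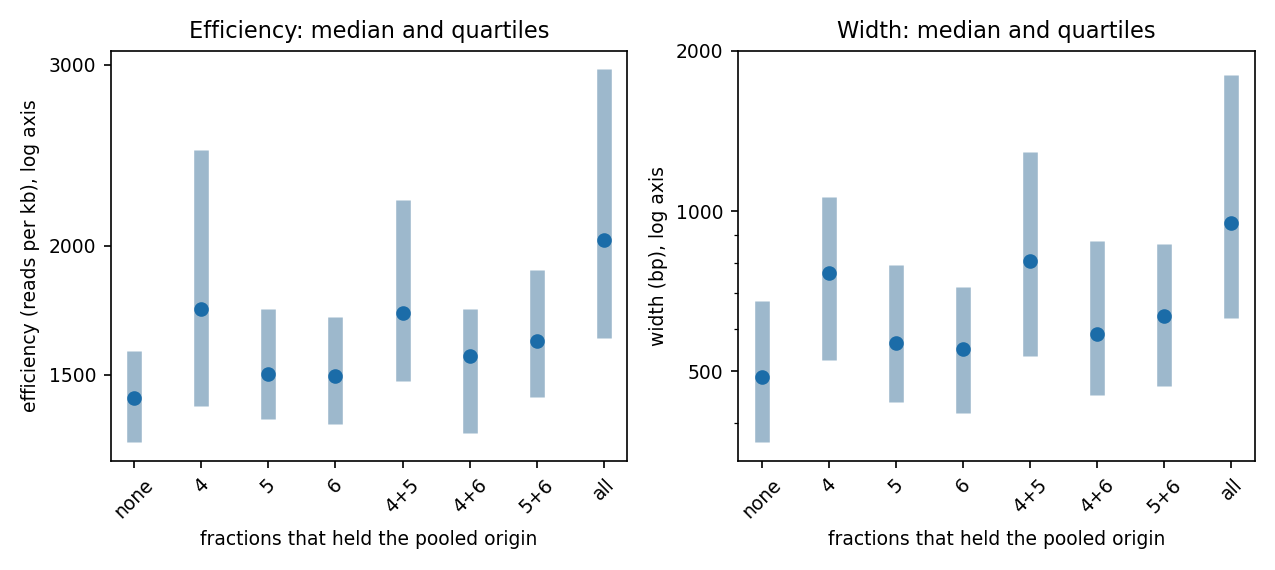
Efficiency in reads per kb (left) and width in bp (right) of pooled S2 origins by the fractions that held them, on log axes. Points are medians and bars span the lower to the upper quartile. Origins in all 3 fractions are highest, at 2026 reads per kb and 948 bp, and origins with fraction 4 alone lie above those with fraction 5 or 6 alone.

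The strongest pooled origin of each combination shows the range. In all 3 fractions it was a 437 bp site on 3RHet at 2308106 to 2308542 at 2331080 reads per kb, which is 1488 times the median efficiency. In fractions 5 and 6 it was a 7960 bp site on 2RHet at 2086240 to 2094199 with 295572 reads per kb. In fractions 4 and 6 it lay on 3L at 5107854 to 5115168 (7315 bp, 15410 reads per kb). The best of the remaining classes were far weaker, at 6702 reads per kb for fraction 5 alone (3L at 17723941 to 17724600) and 6525 for fractions 4 and 5 (2R at 10102848 to 10104282). Fraction 4 alone reached 5451 (2L at 8041888 to 8043143) and fraction 6 alone 3041 (X at 9355662 to 9356051). All 7 were also Bg3 origins, as were 70.1% of the strongest efficiency group and 45.3% of all pooled origins.

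Chromosomes differed in their mix of combinations. On the heterochromatic scaffolds 69.7% of the 631 found pooled origins were in all 3 fractions, against 47.2% of 3207 on the large autosomal arms and 50.3% of 384 on X. The X was rich in long-strand sites: 45 of its 384 found origins (11.7%) were in fraction 6 alone and 8 (2.08%) in fraction 4 alone. On the autosomal arms these shares were 5.39% and 5.89%. Chromosome 4 had 4 of 35 found origins in fraction 6 alone and 0 in fraction 4 alone, but 7 each of its 69 union regions. Of the union regions on X 20% were in fraction 6 alone and 6.15% in fraction 4 alone. These shares were 13.8% and 10.3% on the autosomal arms, and 13.3% and 10.4% over all union regions. Union regions on the heterochromatic scaffolds together ran the other way, with 7.38% in fraction 6 alone and 13.6% in fraction 4 alone. Among these scaffolds YHet went with the X, at 5 and 0 of 29 union regions. Found pooled origins on the scaffolds together differed little, with 16 and 20 of 631.

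Bg3, a readout that the definition of the classes did not use, held larger shares of the combinations with short strands. Of pooled origins in all 3 fractions 67.0% (65.0 to 69.0) were Bg3 origins, as were 65.0% (59.6 to 70.0) of those in 4 and 5 and 57.6% (51.0 to 64.0) of those in 4 alone. Fractions 4 and 6 gave 52.5% (40.04 to 64.7) and fraction 5 alone 46.8% (42.3 to 51.2). The shares were 39.1% (35.8 to 42.6) for 5 and 6, 35.7% (29.9 to 42.0) for 6 alone and 28.6% (27.0 to 30.2) for no fraction. All 4 combinations with fraction 4, the shortest list, lay above the 3 without it. However, the interval of 4 and 6, with only 59 origins, overlapped those of all 3 combinations without fraction 4. The interval of 4 alone also overlapped that of 5 alone. Origins that fraction 4 held, but not all 3, came to 364 of 596 (61.1%, 57.1 to 64.9), and those in fraction 6 without fraction 4 to 388 of 1012 (38.3%, 35.4 to 41.4). On the arms alone these were 60.1% and 35.1%.

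Widths differ between these classes, so the shares were also taken with equal weight to the 5 width groups. They became 53.6%, 48.2% and 34.8% for fractions 4, 5 and 6 alone, 60.6% for 4 and 5, 40.2% for 5 and 6 and 63.9% for all 3. These averages kept fraction 4 alone above fraction 6 alone, but single width groups did not all do so. In the middle width group fraction 4 alone gave 31.0% of 42 origins, below fraction 6 alone (42.9% of 63), fractions 5 and 6 (33.5% of 197) and fraction 5 alone (47.9% of 121). Union regions ran the same way, at 36.8% for fraction 4 alone, 33.8% for fraction 5 alone and 21.03% for fraction 6 alone. A union region in all 3 fractions was in Bg3 in 66.9% of 2160 cases when the pooled list held it and in 41.0% of 666 when it did not. Efficiency also differed between the pooled classes and was not held equal here. Its median was 1736 reads per kb for fraction 4 alone and 1494 for fraction 6 alone. The share in Bg3 was 34.4% in the weakest efficiency group of pooled origins and 70.1% in the strongest.

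**Figure D5:**
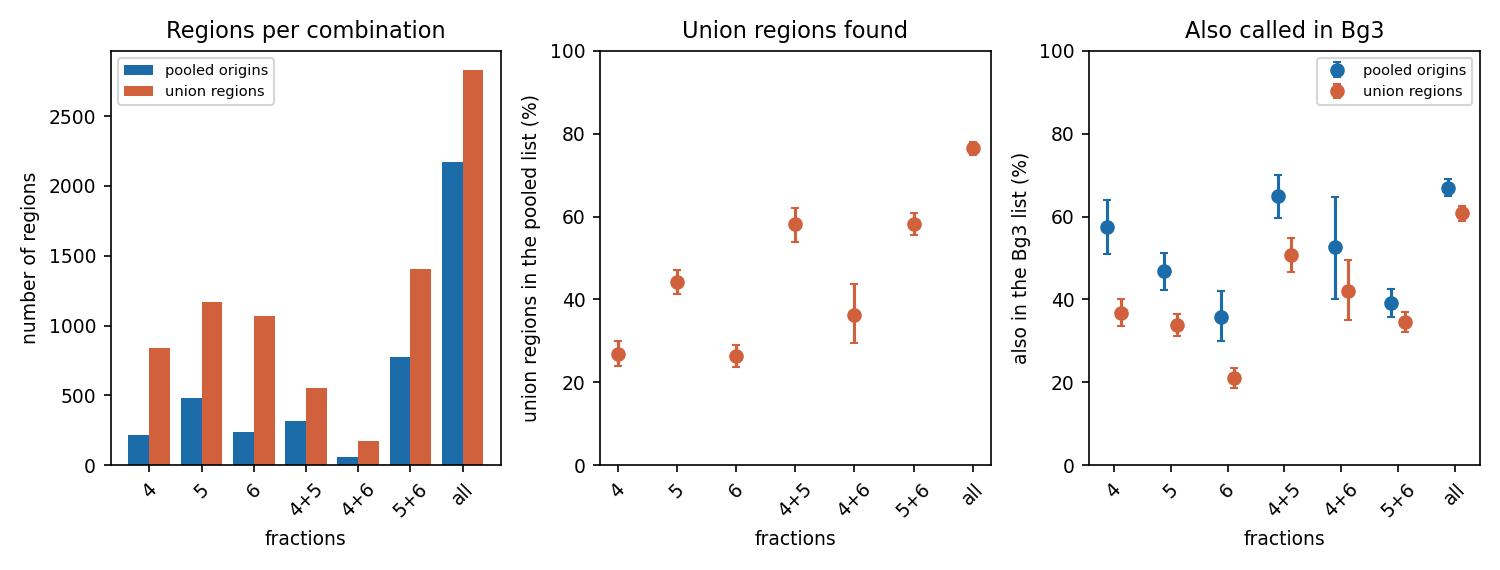
The 7 combinations of fractions. Left, number of pooled origins (blue) and union regions (orange) in each. Middle, share of union regions found in the pooled list, highest for all 3 fractions (76.4%) and lowest for fractions 6 (26.3%) and 4 (26.9%) alone. Right, share also in the Bg3 list. Bars in the middle and right panels are 95% Wilson intervals.

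Taking fractions and Bg3 together, 2430 pooled S2 origins (33.4%) were in both, 1827 (25.1%) in the fractions only, 860 (11.8%) in Bg3 only and 2151 (29.6%) in neither. Median efficiency fell in that order, at 1898, 1655, 1461 and 1414 reads per kb, and median width too, at 865, 656, 559 and 463 bp. Within each efficiency group Bg3 held more of the origins found in the fractions than of those not found. In the weakest group the shares were 47.2% and 27.8% and in the strongest 71.2% and 56.1%. Origins in neither list made up 47.7% of the weakest group and 3.23% of the strongest.

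Matched sites had nearly the same median width in the pooled list and in the joined union. Among 3785 pooled origins and union regions that matched singly, centres lay a median of 70 bp apart, and the median ratio of pooled to union width was 1.01 (1.00 to 1.01). The spread was wide, with quartiles of 0.845 and 1.31. The pooled origin lay wholly inside the union region in 1037 pairs, the reverse held in 1209, and 1539 overlapped in part. The ratio differed between combinations. It was 0.973 (0.964 to 0.983) for the 1857 pairs in all 3 fractions, 1.10 for 4 and 5, 1.00 for 4 and 6, 1.02 for 5 and 6, and 1.23, 1.38 and 1.37 for fractions 4, 5 and 6 alone. Regions seen in a single fraction were thus mostly narrower than the pooled origin at the same place. The pooled origin was the wider in 71%, 79.1% and 72.6% of pairs for fractions 4, 5 and 6 alone. Joining can only widen regions of several fractions, so the difference in ratio between combinations follows in part from how the union was built.

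Splitting of sites was uncommon. Of the found pooled origins 4012 touched 1 union region, 231 touched 2 and 14 touched 3, and of the found union regions 4270 touched 1 pooled origin, 112 touched 2, 6 touched 3 and 1 touched 4. The first 3 of the 14 in map order were on 2L, at 14417897 to 14419210 (fractions 5 and 6), 15016296 to 15017501 and 15446024 to 15450488 (both all 3 fractions). The union region that touched 4 pooled origins was on 3L at 23994638 to 23998593. The first 2 in map order of the 6 that touched 3 were on 3L at 23543647 to 23546842 and on 3LHet at 1020720 to 1024926. Of the 119 union regions that touched several pooled origins 36.1% were on heterochromatic scaffolds, against 14.03% of those that touched 1. These 119 were also wider, with a median of 2082 bp against 701 bp, and width was not held equal.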

How the data were processed

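The study deposited 5 origin lists for its 9 samples. The genome build was dm3, and MACS 1.4.1, Bowtie2 2.2.0 and SAMtools 0.1.19 are listed as tools, per the submitters' processing notes. No source used here states their settings or thresholds, or how replicates were combined. Positions were used as deposited, where a start may be off by 1 base. The deposited efficiency is a signal in reads per kb, and efficiency times width gave whole reads (within 0.001) for all pooled S2 origins. The depth of each library is unknown here: only reads inside pooled origins could be summed (42.1 M), and the fraction lists carry no score.

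Fraction regions that shared a base were joined. Pooled origins and union regions counted as found when they shared at least 1 bp. Shares "of like width and efficiency" are averages, over the members, of the share found among all regions in the same of 25 cells (5 equal groups by width times 5 by efficiency) or, for the union, the same of 5 width groups. Named sites followed a rule: the strongest pooled origin per combination, the 5 strongest in no fraction, the 5 widest union regions in all 3 fractions but not the pooled list, the 3 that spanned most regions each way, and the 3 highest and 3 lowest windows of 1 Mb with at least 20 pooled origins. Members, lists and rules were chosen with earlier results of these data known. The overlap code was tested on simulated data. Python 3.11.15, pandas 2.3.3, NumPy 2.4.6 and SciPy 1.17.1 were used. Alternatives changed the overlap rule, widths, joining, sequences, fractions and thresholds. Mitochondrial regions were left out. No sequence is shown, because no dm3 genome was used here.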

Additional observations from a re-analysis of the deposited data

How the results depend on the processing

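No paired analysis was possible because each list merges its replicates and no result comes from a test across samples. Leaving out single replicates was not possible for the same reason, and leaving out chrU and chrUextra changed nothing, since no list held a region there. Of the settings tried on the comparison's main values, 69 stayed within the counting interval (within 1.5 times for counts) and 53 moved. The share of pooled origins found, 58.6%, and of union regions found, 54.6%, became 46.0% and 41.6% with 50% overlap of both regions, 51.6% and 49.3% with 50% of the region asked about, and 63.5% and 61.4% with a gap of 500 bp. With the centre base they were 54.6% and 50.6%, and with both lists at 500 bp 54.5% and 50.1%. Without fraction 4 they were 55.6% and 57.4%, without fraction 5 52.0% and 56.3%, and without fraction 6 55.3% and 58.8%. Origins above the median efficiency gave 77.7% and 37.1%, regions of 500 bp or more 69.8% and 62.3%, and union regions of 2 or 3 fractions 46.1% and 67.8%. Union regions of 1 fraction, a setting chosen after seeing the data, gave 33.3%. Joining within 1 kb gave 59.1% of union regions. The arms alone gave 56.2% of pooled origins and leaving out 3L gave 60.3%.

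With 50% overlap of both regions the counts were 341 for fraction 4, 128 for 4 and 6 and 1400 for all 3. Median efficiencies then were 1818 (found) and 1450 reads per kb (not found), the width of those not found 527 bp, and the neighbour distances 4486 and 4576 bp, so the difference in spacing nearly closed. With a gap of 500 bp the found origins had medians of 1735 reads per kb, 734 bp and 3965 bp to the neighbour, and the others 5441.5 bp. The centre base gave a width of 506 bp for those not found, and the arms alone 724 bp and 4657.5 bp for those found. Mean efficiency was 4472 against 1474 reads per kb.

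At 50% overlap of both regions the shares in Bg3 were 32.3%, 30.5% and 18.9% for fractions 4, 5 and 6 alone, 42.5% for 4 and 5, 33.9% for 4 and 6, 20.03% for 5 and 6, 39.0% for all 3 and 15.97% for none. With equal width weights, chosen after seeing the data, all 3 gave 63.9% and none 33.0%. Relative to all pooled origins, recovery was 19.1 points higher on the heterochromatic scaffolds, and 9.30 at like width and efficiency (2RHet 5.88, 3LHet 9.79, 3RHet 13.4). Depth of the fraction lists is unknown, and whether sites absent from them lay below detection was not tested.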

Other observations

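Recovery varied along the large arms. Over 115 windows of 1 Mb with at least 20 pooled origins, the share found in the union ran from 35.0% to 88.7%, with a median of 55.4% and quartiles of 49.6% and 60.9%. The 3 highest windows were X from 21 to 22 Mb (47 of 53 origins, 88.7%, interval 77.4 to 94.7), 2R from 6 to 7 Mb (56 of 72, 77.8%, 66.9 to 85.8) and 2L from 22 to 23 Mb (79 of 107, 73.8%, 64.8 to 81.2). Origins of like width and efficiency gave 73.0%, 64.9% and 71.7%, so the 2L window differed little from its own mix of origins. The 3 lowest were X from 20 to 21 Mb (7 of 20, 35.0%, 18.1 to 56.7), 3L from 13 to 14 Mb (23 of 63, 36.5%, 25.7 to 48.9) and 3L from 9 to 10 Mb (11 of 30, 36.7%, 21.9 to 54.5). Origins of like width and efficiency gave 41.8%, 53.0% and 55.3% there. The value for the X window, which held only 20 origins, lay within its interval, and those for the 3L windows lay above theirs. The windows were chosen among 115 for an extreme share found, so a value outside such an interval is no test of a difference. In the 3L window from 13 to 14 Mb 40 pooled origins and 11 of 36 union regions were unmatched. In that window 39.7% of the pooled origins were Bg3 origins.

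Mitochondrial DNA, which does not use nuclear origins, was listed in 1 region each of fractions 5 and 6 and 3 of Bg3, and in none of fraction 4 or the S2 pooled list.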
